A study of Rattus norvegicus with 9 samples.

Results

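The genes described here are 7 that respond to, or carry, the glucocorticoid signal, and they were chosen by gene symbol among the 41801 genes listed for every library. They are Nr3c1, Fkbp5, Tsc22d3, Sgk1, Per1, Klf9 and Zbtb16, and all 7 were found and detected. Cells were taken from the circular osteotomy site of the tibia of male Sprague-Dawley rats aged 6 to 8 weeks, and 10x Genomics single-cell libraries of 8 conditions, each with 1 library, were analysed. The TO animals had the tibial osteotomy of 3 mm and a foot wound of 4 mm without shock waves, and the TOE animals also received radial extracorporeal shock wave therapy (rESWT) through the skin. The day in a TOE library's name is that of the session before collection, so that the 2d libraries were taken before any session on day 4. The 4 h libraries were TO 2d 4h, TO 4d 4h, TOE 2d 4h and TOE 4d 4h, and they were set against TO 2d 0h, TO 4d 24h, TOE 2d 24h and TOE 4d 24h. Both sets held the same number of TO and TOE libraries and of names with day 2 and day 4, but the 0 h library was TO, without a TOE library at that hour. By the study's description the 24 h samples were collected a day after the day in their names. The time since the osteotomy therefore differed between the sets, and its part in the 4 h changes was not tested. The TO animals had no session, so the hour in a TO name is no time after a session of their own. The time of day is not given in the sources used here, so the hour in the names and the time of day cannot be told apart. TO 2d 24h was not analysed here, and the number of rats behind each library is not given in the sources used here.

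Glucocorticoids are steroid hormones of the adrenal cortex whose blood level follows the day and rises with injury and stress. They bind the glucocorticoid receptor, encoded by Nr3c1, which is held in the cytoplasm by heat shock protein 90 and its partners and moves to the nucleus once the hormone is bound. There the receptor turns on genes that include Fkbp5, Tsc22d3, Sgk1, Per1, Klf9 and Zbtb16, and it lowers many inflammatory genes. The hormone is known for releasing neutrophils from the bone marrow and for reducing immature B cells there and immature T cells in the thymus.

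A promoter window of Tsc22d3 and the window of Klf9 are shown because they alone, among the windows of these genes, held any of the letters searched. RefSeq windows of 250 bases before to 50 bases after an annotated start, in the build GRCr8, were found for 6 of the 7 genes and not for Zbtb16. The letters TGTTCT, the core bound by the receptor, and CACGTG, an E-box bound by clock factors, were searched on both strands along with TGACG, the core of the cAMP response element. The letters TGACG were added to the search after the windows had been read, so that nothing is drawn from their presence in windows shown for holding them. Over 33469 windows of the table, TGTTCT was found in 20.7%, CACGTG in 6.42% and TGACG in 21.2%. None of the 11 windows of the 6 genes held TGTTCT or CACGTG, which says only that these letters are not in these windows. TGACG was found in the third window of Tsc22d3 (chrX:109009985-109010284, minus strand), 75 and 65 bases before the start, and in the window of Klf9 (chr1:230126396-230126695, plus strand), 79 bases before the start. The window of Per1, whose level varied with those of both genes (given further on), did not hold it. Capitals mark TGACG on either strand.
Tsc22d3: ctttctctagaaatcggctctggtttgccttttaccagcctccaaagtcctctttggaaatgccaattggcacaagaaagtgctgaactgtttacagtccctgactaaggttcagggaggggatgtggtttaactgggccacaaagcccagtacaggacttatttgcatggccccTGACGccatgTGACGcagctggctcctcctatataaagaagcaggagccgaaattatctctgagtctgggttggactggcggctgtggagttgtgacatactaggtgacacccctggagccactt
Klf9: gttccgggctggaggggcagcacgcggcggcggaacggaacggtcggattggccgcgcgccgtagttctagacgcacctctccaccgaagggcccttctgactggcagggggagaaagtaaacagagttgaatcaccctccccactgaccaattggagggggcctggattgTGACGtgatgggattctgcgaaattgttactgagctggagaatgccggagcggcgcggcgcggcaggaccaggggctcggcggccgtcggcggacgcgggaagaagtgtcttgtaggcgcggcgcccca

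After filtering, 111646 cells were kept, with medians of 4444 to 5567 UMIs (molecules counted by barcode) per cell in a library. They were grouped into classes named after their markers. The B-cell-like class held 57.2% of the cells and the neutrophil-like and monocyte-like classes 15461 and 11822 cells, while the mesenchymal-like class of the repair tissue held 1218 cells. The markers of bone and stroma were thus present, but the class named from them held few cells. A further cluster of 1229 cells had 7 of 12 mesenchymal markers raised, with Bglap and Lum among its leading genes. It was left unnamed for its low depth, came to 63.3% from TOE 2d 24h, and lies outside the mesenchymal-like class. The macrophage-like class is cluster 20 alone, in which 6 of 8 macrophage markers were raised but also all the monocyte markers, and no macrophage marker was among its leading genes (Dgki, Ccl9, Spp1 and Arg1 among them). A cluster of 516 cells led by C1qa, C1qb, C1qc and Cd163 was left unnamed, so that values of the macrophage-like class are those of cluster 20. A level is a gene's UMIs over the UMIs of all genes, summed over the cells of a class in a library and given per 1000000 UMIs (CPM), and intervals from counts cover counting error only. A level of a class does not tell a share of expressing cells from a level per cell. TOE 4d 24h stood apart from the other 0 h and 24 h libraries. One B-cell-like cluster (cluster 0) held 42.5% to 56.3% of the B-cell-like cells in the other libraries of 0 h and 24 h and 1.66% in TOE 4d 24h, against 0.650% to 1.30% at 4 h. Neutrophil-like cluster 12 held 43.8% of the class in TOE 4d 24h and 2.06% to 13.8% in the other 7 libraries. Monocyte-like cluster 19 held 97.8% in TOE 4d 24h, 20.1% to 28.9% in the other 0 h and 24 h libraries and 30.0% to 54.1% at 4 h. The median mitochondrial share in B-cell-like cells was 1.19% in TOE 4d 24h, 2.29% to 3.25% in the other 0 h and 24 h libraries and 1.02% to 1.69% at 4 h. The main 4 h changes of the 7 genes by class are therefore given with and without TOE 4d 24h. The fits within clusters, the tests between classes and the calls of listed genes are over the 8 libraries only. The same holds for the comparisons of TOE with TO, of the days, and of the 4 h change between TOE and TO. TOE 4d 24h was set apart after the data had been seen, and the fit without it is 1 of the 8 that left out each library in turn. Calls found only without it rest on that choice. With TOE 4d 24h set aside, the mitochondrial share and the B-cell-like and monocyte-like clusters differed with the hour. The neutrophil-like clusters differed with the library. Monocyte-like changes without TOE 4d 24h are thus in a setting where the make-up of the class differs with the hour, and its part was not tested. Changes within clusters are given beside the results below, and the part of the mitochondrial share was not tested.

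Every class held the receptor transcript. Nr3c1 had its highest medians over the 8 libraries in the T/NK-cell-like class (493 CPM, range 334 to 627) and the mast-cell/basophil-like class (481 CPM, range 212.5 to 758), whose ranges overlapped. The B-cell-like class followed with 327 CPM, and the lowest medians were 131 CPM in granulocyte-monocyte progenitor-like and 119 CPM in erythroid-like cells. Fkbp5, a co-chaperone that holds the receptor back, was led by B-cell-like cells (158 CPM, range 94.1 to 187), which overlapped with dendritic-cell-like (125 CPM) and T/NK-cell-like cells (119.5 CPM). Mesenchymal-like cells had the lowest Fkbp5 median, 27.6 CPM, with a range of 14.0 to 54.7. Tsc22d3, which encodes the anti-inflammatory leucine zipper protein GILZ, was led by mast-cell/basophil-like cells at 147 CPM and was lowest in erythroid-like cells at 23.7 CPM. Its neighbours in that order overlapped in every case.

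Sgk1 and Klf9 had another order of classes. Sgk1, a kinase that regulates ion channels and cell survival, was highest in neutrophil-like (127 CPM, range 92.6 to 189) and macrophage-like cells (124 CPM, range 46.9 to 162). In B-cell-like cells its median was 12.6 CPM, and the highest B-cell-like library (14.7 CPM) was below the lowest neutrophil-like library. Klf9, a Krüppel-like transcription factor, was highest in mesenchymal-like cells (187 CPM, range 134 to 324.5) and lowest in neutrophil-like cells (7.61 CPM, range 1.80 to 14.7). Per1, a repressor of the circadian clock, was highest in T/NK-cell-like cells (63.6 CPM, range 33.4 to 99.8) and lowest in granulocyte-monocyte progenitor-like cells (8.21 CPM, range 6.60 to 15.9). Zbtb16, the transcription factor PLZF of innate-like lymphocytes, was highest in T/NK-cell-like cells (115 CPM, range 85.4 to 237), followed by mast-cell/basophil-like cells (43.9 CPM, range 29.3 to 71.6). Those ranges did not overlap, and neither of them overlapped with the B-cell-like range of 0.318 to 0.725 CPM. After thinning each cell to 2000 UMIs, 8.64% to 14.3% of T/NK-cell-like cells and 0.0306% to 0.141% of B-cell-like cells had a Zbtb16 UMI, so the B-cell-like share is read as background. These levels are a description and were not tested.

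**Figure D1:**
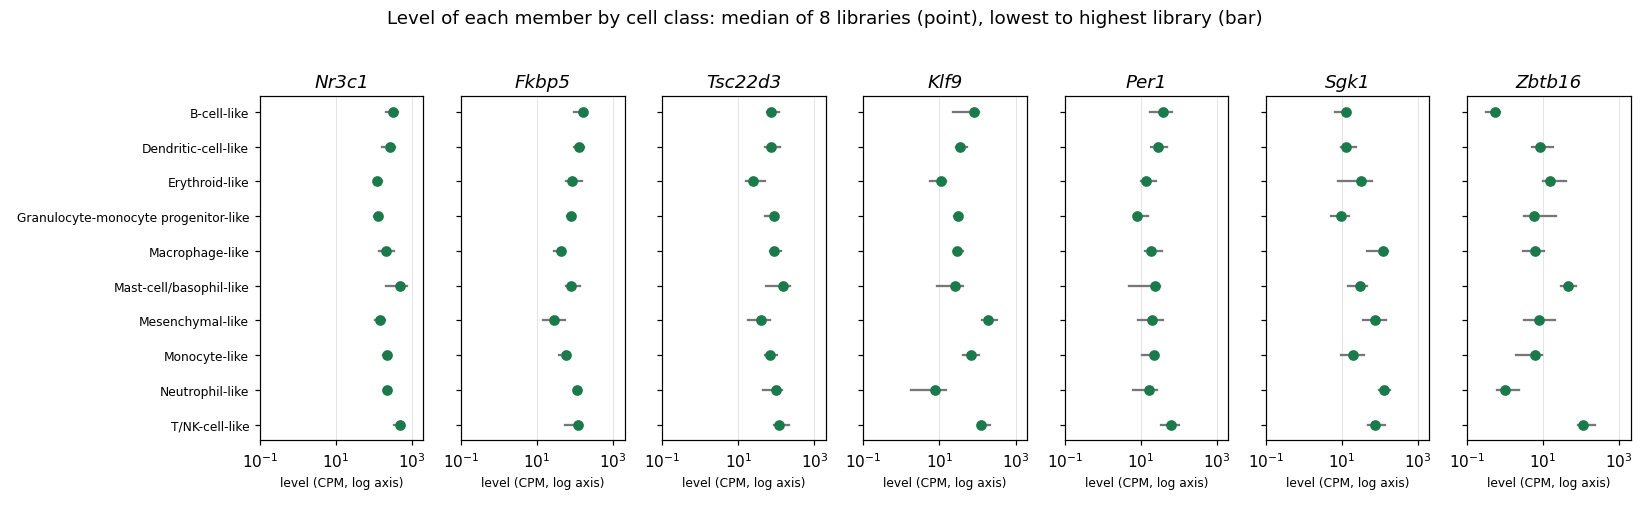
Levels of the 7 genes (CPM, log axis) in the 10 classes tested; points are medians of 8 libraries and bars run from the lowest to the highest library. Zbtb16 spans from 0.552 CPM in B-cell-like to 115 CPM in T/NK-cell-like cells, whereas Nr3c1 stays between 119 and 493 CPM.

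Nr3c1, the receptor, was higher at 4 h in B-cell-like, monocyte-like and mast-cell/basophil-like cells, and no other gene of the 7 was called higher in any class over the 8 libraries. In B-cell-like cells its level was 203 CPM in TO 2d 0h, 212 CPM in TO 4d 24h, 236 CPM in TOE 2d 24h and 276 CPM in TOE 4d 24h. The 4 h libraries had 421 CPM in TO 2d 4h, 416 CPM in TO 4d 4h, 377 CPM in TOE 2d 4h and 426 CPM in TOE 4d 4h, so the 2 sets did not overlap. The change was 1.70-fold (log2 0.77 ± 0.13, SE), and it passed edgeR's quasi-likelihood test after Benjamini-Hochberg adjustment over all genes (adjusted p = 0.0143). Monocyte-like cells had 170.5 to 183 CPM at 0 h and 24 h and 253 to 288 CPM at 4 h, again without overlap (log2 0.64 ± 0.11, edgeR adjusted p = 0.0158). The share of all genes whose sets did not overlap was not counted, so sets without overlap are given here and below as a description. Of 18734 genes tested in B-cell-like cells, 5964 had an unadjusted edgeR p under 0.05.

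In mast-cell/basophil-like cells Nr3c1 was 212.5 to 371 CPM at 0 h and 24 h and 591 to 758 CPM at 4 h (log2 0.87 ± 0.18, edgeR adjusted p = 0.0213). Their median depth was 2310 to 3870 UMIs per cell at 4 h and 5120 to 7870 UMIs at the other hours, and its part in the difference was not tested. The sets did not overlap in T/NK-cell-like, mesenchymal-like and granulocyte-monocyte progenitor-like cells either, but the test was not passed there (edgeR adjusted p = 0.0815, 0.364 and 0.114). Neutrophil-like cells had 184 to 239 CPM at 0 h and 24 h and 211 to 272 CPM at 4 h, with overlap (log2 0.06 ± 0.16, edgeR adjusted p = 0.853). The fitted value lies below the ratio of the CPM values because the scaling of libraries by TMM lowered the change of all genes by 0.188 on the log2 scale in this class. The scaling lowered it by 0.199 in mast-cell/basophil-like, 0.226 in mesenchymal-like and 0.233 in granulocyte-monocyte progenitor-like cells, and it moved it by less than 0.1 either way elsewhere.

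Without TOE 4d 24h the change of Nr3c1 was 0.82 in B-cell-like, 0.62 in monocyte-like and 0.71 in mast-cell/basophil-like cells, and it passed the test in all 3 (edgeR adjusted p = 0.00457, 0.00517 and 0.0227). The test was no longer passed in B-cell-like cells without TO 2d 0h (adjusted p = 0.0896), TO 2d 4h (0.0766), TO 4d 4h (0.0735) or TO 4d 24h (0.0669), with changes of 0.66 to 0.77. The same held in monocyte-like cells without TO 2d 0h (edgeR adjusted p = 0.0781), TO 2d 4h (0.0746), TO 4d 4h (0.0627) or TO 4d 24h (0.0603), with changes of 0.61 to 0.65. In mast-cell/basophil-like cells the call was lost without TO 2d 0h, TO 2d 4h, TO 4d 4h, TO 4d 24h, TOE 2d 4h or TOE 4d 4h, where the highest edgeR adjusted p was 0.1003 and the changes were 0.81 to 0.95.

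Within the B-cell-like class the change of Nr3c1 was also fitted in the 8 of its 10 clusters that had at least 20 cells in every library, which was decided after the class values had been seen. Cluster 23 (5371 cells, of which TOE 2d 24h held 16) and cluster 4 (1090 cells, of which TO 2d 4h held 7) were not fitted. It was called in cluster 0 (log2 1.29 ± 0.19, edgeR adjusted p = 8.088e-05, 17.9% of genes called there), cluster 3 (0.76 ± 0.12, 0.000779, 20.7%), cluster 7, with Rag1 among its leading genes (0.97 ± 0.14, 3.658e-07, 14.7%), and cluster 14, led by Ms4a1 (0.47 ± 0.13, 0.0170, 12.7%). The test was not passed in cluster 5, led by histone genes (0.23 ± 0.19, edgeR adjusted p = 0.398, 25.5% called), cluster 8, led by genes of the dividing cell such as Aspm and E2f7 (-0.08 ± 0.15, 0.765, 14.4%), cluster 13, led by Jchain and class II genes (0.47 ± 0.20, 0.118, 18.9%), or cluster 15, led by Dntt (0.31 ± 0.13, 0.152, 10.6%). Cluster 7 held 22.4% to 46.1% of the B-cell-like cells at 4 h and 0.650% to 2.94% at the other hours, and cluster 0 held 45 to 94 cells in each 4 h library. Cluster 5 held 98 to 166 and cluster 13 held 21 to 58 cells in each 4 h library, and cluster 8 held 26 to 311 cells in each other library. All of these rest on few cells in one of the sets. Fkbp5 was called higher in clusters 0 (log2 0.89), 7 (0.78) and 15 (0.59), and Tsc22d3 was called lower in clusters 0 (-1.01), 5 (-1.28) and 15 (-1.02). Per1 was called lower in clusters 0 (-1.11) and 14 (-1.17), and Klf9 higher in cluster 8 (1.71, edgeR adjusted p = 0.04545). Of the monocyte-like clusters, cluster 19 could be fitted, and Nr3c1 was called higher there (0.50 ± 0.10, edgeR adjusted p = 0.0168, 10.3% of genes called), and no other gene of the 7 was called in it. Whether the clusters differ from each other was not tested.

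Fkbp5 had its highest B-cell-like and monocyte-like levels in TOE 4d 24h. B-cell-like cells had 118 CPM in TO 2d 0h, 109 CPM in TO 4d 24h and 94.1 CPM in TOE 2d 24h, but 187 CPM in TOE 4d 24h, above all 4 h libraries. Those had 169 CPM in TO 2d 4h, 177.5 CPM in TO 4d 4h, 184 CPM in TOE 2d 4h and 146 CPM in TOE 4d 4h. Over the 8 libraries the test was not passed (log2 0.38 ± 0.20, edgeR adjusted p = 0.244). Without TOE 4d 24h the log2 change was 0.62 ± 0.12, with an edgeR adjusted p of 0.00975. In monocyte-like cells TOE 4d 24h was likewise the highest library at 75.5 CPM, the other 0 h and 24 h libraries had 38.1 to 48.6 CPM and the 4 h libraries 54.4 to 73.6 CPM. The change there was 0.36 ± 0.17 (edgeR adjusted p = 0.197), and 0.56 ± 0.13 without TOE 4d 24h (edgeR adjusted p = 0.0170). Within monocyte-like cluster 19, over the 8 libraries, it was 0.04 ± 0.13 (edgeR adjusted p = 0.871).

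Dendritic-cell-like cells were the class in which Fkbp5 was higher in all 4 h libraries (129 to 168 CPM) than in all others (91.8 to 121 CPM). The test was not passed over the 8 libraries (log2 0.42 ± 0.13, edgeR adjusted p = 0.0962) and was passed without TOE 4d 24h (0.48 ± 0.13, edgeR adjusted p = 0.0339). T/NK-cell-like cells had an Fkbp5 change of 0.67 ± 0.24 (edgeR adjusted p = 0.0926) and of 0.91 ± 0.18 without TOE 4d 24h (edgeR adjusted p = 0.00740). In neutrophil-like cells the level was 92.1 to 143 CPM at 0 h and 24 h and 104 to 146 CPM at 4 h, and no difference was detectable (-0.09 ± 0.18, edgeR adjusted p = 0.806).

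Tsc22d3 had fitted changes below 0 in 9 of 10 classes. In B-cell-like cells it was 108 CPM in TO 2d 0h, 117 CPM in TO 4d 24h, 102 CPM in TOE 2d 24h and 56.4 CPM in TOE 4d 24h, against 64.3 CPM in TO 2d 4h, 58.1 CPM in TO 4d 4h, 58.3 CPM in TOE 2d 4h and 79.7 CPM in TOE 4d 4h. TOE 4d 24h was thus the lowest of all 8, and the sets overlapped through it alone (log2 -0.61 ± 0.25, edgeR adjusted p = 0.133). Without it the change was -0.87 ± 0.14 and passed the test (edgeR adjusted p = 0.00528). T/NK-cell-like cells had 168 CPM in TO 2d 0h, 188 CPM in TO 4d 24h, 221 CPM in TOE 2d 24h and 107 CPM in TOE 4d 24h, the last from 29 cells, and 86.4 to 130 CPM at 4 h. There Tsc22d3 fell over the 8 libraries (log2 -0.85 ± 0.21, edgeR adjusted p = 0.0242) and without TOE 4d 24h (-1.12 ± 0.13, edgeR adjusted p = 0.000607). The call was lost without TO 2d 0h, TO 2d 4h, TO 4d 4h, TO 4d 24h, TOE 2d 4h or TOE 2d 24h, with an edgeR adjusted p of up to 0.1485 and changes of -0.88 to -0.70.

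Further classes gave Tsc22d3 calls without TOE 4d 24h and not with it. Dendritic-cell-like cells had 111 to 124 CPM in the other 0 h and 24 h libraries, 50.5 CPM in TOE 4d 24h and 55.7 to 82.4 CPM at 4 h (log2 -0.95 ± 0.15, edgeR adjusted p = 0.00623 without TOE 4d 24h). Monocyte-like cells had 66.7 to 105 CPM at 0 h and 24 h and 51.6 to 70.8 CPM at 4 h, with a change of -0.42 ± 0.21 (edgeR adjusted p = 0.215), of -0.59 ± 0.15 without TOE 4d 24h (edgeR adjusted p = 0.0241), and of -0.21 ± 0.15 within cluster 19 over the 8 libraries (edgeR adjusted p = 0.402). In granulocyte-monocyte progenitor-like cells the change without it was -0.50 ± 0.12 (edgeR adjusted p = 0.0111). Neutrophil-like cells had 45.1 CPM in TOE 4d 24h, 108 to 140 CPM in the other 0 h and 24 h libraries and 57.5 to 120 CPM at 4 h, and the test was passed neither with TOE 4d 24h (edgeR adjusted p = 0.413) nor without it (0.0840).

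Sgk1 had 1 call over the 8 libraries. It fell in T/NK-cell-like cells, from 70.2 to 135 CPM at 0 h and 24 h to 47.3 to 78.1 CPM at 4 h (log2 -0.79 ± 0.22, edgeR adjusted p = 0.0356), with -0.93 without TOE 4d 24h (edgeR adjusted p = 0.0174). The call was lost without the same 6 libraries as for Tsc22d3, with an edgeR adjusted p of up to 0.138 and changes of -0.91 to -0.54. Monocyte-like cells had 38.3 CPM in TO 2d 0h, 27.8 CPM in TO 4d 24h, 28.9 CPM in TOE 2d 24h and 10.2 CPM in TOE 4d 24h, and at 4 h 21.4 CPM in TO 2d 4h, 18.1 CPM in TO 4d 4h, 9.44 CPM in TOE 2d 4h and 15.8 CPM in TOE 4d 4h. That change was -0.63 ± 0.35 (edgeR adjusted p = 0.265) and passed the test without TOE 4d 24h (-0.93 ± 0.24, edgeR adjusted p = 0.0310), and within cluster 19 over the 8 libraries it was -0.29 ± 0.29 (edgeR adjusted p = 0.570). Dendritic-cell-like cells also had a Sgk1 call without that library alone (-0.83 ± 0.24, edgeR adjusted p = 0.0463).

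In erythroid-like cells Sgk1 was 14.8 CPM in TO 2d 0h, 14.6 CPM in TO 4d 24h, 27.3 CPM in TOE 2d 24h and 7.92 CPM in TOE 4d 24h. All 4 h libraries were higher, with 52.6 CPM in TO 2d 4h, 48.0 CPM in TO 4d 4h, 38.1 CPM in TOE 2d 4h and 60.7 CPM in TOE 4d 4h. The log2 change of 1.72 ± 0.47 did not pass the test over the 8 libraries (edgeR adjusted p = 0.124, unadjusted p = 0.00770) or without TOE 4d 24h (1.36), and it passed without TOE 2d 24h (2.21, edgeR adjusted p = 0.0125). TOE 4d 24h held 78 erythroid-like cells, all of 1 cluster that held 9.54% to 33.9% of the class in the other libraries, and their median depth was 32766 UMIs against 4952 to 9148 UMIs elsewhere. Within that cluster (cluster 26), fitted over the 8 libraries, the Sgk1 change was 0.59 ± 0.30 and did not pass the test (edgeR adjusted p = 0.239, 8.44% of genes called). Neutrophil-like cells, with the highest Sgk1 level, had 118 to 189 CPM at 0 h and 24 h and 92.6 to 156 CPM at 4 h (-0.39 ± 0.21, edgeR adjusted p = 0.279).

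Per1 and Klf9, a clock gene and a clock-linked transcription factor, each had fitted changes below 0 in 8 of 10 classes, and neither passed the test over the 8 libraries in any class (lowest edgeR adjusted p 0.102 for Per1 and 0.148 for Klf9). In neutrophil-like cells Per1 was 17.8 CPM in TO 2d 0h, 25.7 CPM in TO 4d 24h, 26.3 CPM in TOE 2d 24h and 6.31 CPM in TOE 4d 24h, and 9.61 to 18.0 CPM at 4 h. Without TOE 4d 24h its change was -0.93 ± 0.27 (edgeR adjusted p = 0.0478). Klf9 in these cells was 11.2 CPM in TO 2d 0h, 14.7 CPM in TO 4d 24h, 11.9 CPM in TOE 2d 24h and 1.80 CPM in TOE 4d 24h, and 6.73 to 7.62 CPM at 4 h. Its change without TOE 4d 24h was -1.02 ± 0.17 (edgeR adjusted p = 0.00439). Clusters 9, 10 and 12 of the class were fitted, over the 8 libraries only, and none gave a Klf9 call, with -0.18 ± 0.45 in cluster 9 (edgeR adjusted p = 0.843, 7.70% of genes called), -0.82 ± 0.42 in cluster 10 (0.257, 8.63%) and -2.47 ± 1.115 in cluster 12 (0.199, 8.05%). Per1 was not called in them either (lowest edgeR adjusted p 0.0934). No fit was made for cluster 21, whose 385 cells came to 80.8% from TO 2d 0h. For both genes TOE 4d 24h was the lowest of the 8 neutrophil-like libraries.

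B-cell-like cells did not follow that order for Klf9. The level there was 74.5 CPM in TO 2d 0h, 96.9 CPM in TO 4d 24h, 74.9 CPM in TOE 2d 24h and 22.5 CPM in TOE 4d 24h, and 96.2 CPM in TO 2d 4h, 88.3 CPM in TO 4d 4h, 53.4 CPM in TOE 2d 4h and 110 CPM in TOE 4d 4h. TOE 4d 24h was the lowest and the other libraries were mixed, with a log2 change of 0.34 ± 0.40 (edgeR adjusted p = 0.602) that was -0.05 without TOE 4d 24h. Per1 in B-cell-like cells was highest in TOE 2d 24h (66.9 CPM) and lowest in TOE 2d 4h (17.7 CPM), with 21.3 to 40.6 CPM in the other libraries (-0.41 ± 0.39, edgeR adjusted p = 0.509). In erythroid-like cells the Per1 sets did not overlap, at 15.7 to 24.9 CPM at 0 h and 24 h and 10.1 to 12.4 CPM at 4 h, and the test was not passed (-0.70 ± 0.28, edgeR adjusted p = 0.212).

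Zbtb16 gave 1 call, in granulocyte-monocyte progenitor-like cells. It was 6.99 CPM in TO 2d 0h, 5.13 CPM in TO 4d 24h, 10.3 CPM in TOE 2d 24h and 21.7 CPM in TOE 4d 24h, against 4.84 CPM in TO 2d 4h, 5.77 CPM in TO 4d 4h, 3.15 CPM in TOE 2d 4h and 5.74 CPM in TOE 4d 4h. TOE 4d 24h was far above the rest, and the sets overlapped. The gene fell over the 8 libraries (log2 -1.31 ± 0.39, edgeR adjusted p = 0.0393). The call was lost without TOE 4d 24h (-0.89 ± 0.34, edgeR adjusted p = 0.0758), and also without TO 2d 0h, TO 4d 4h, TOE 2d 4h, TOE 2d 24h or TOE 4d 4h, with an edgeR adjusted p of up to 0.131. Each library gave 24 to 59 UMIs of Zbtb16 in this class. The median depth of these cells was 27477 to 40653 UMIs at 4 h and 15884 to 24640 UMIs at the other hours, and its part in this and the Tsc22d3 change of the class was not tested. In T/NK-cell-like cells, where the gene was highest, no difference was detectable (-0.23 ± 0.32, edgeR adjusted p = 0.688).

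**Figure D2:**
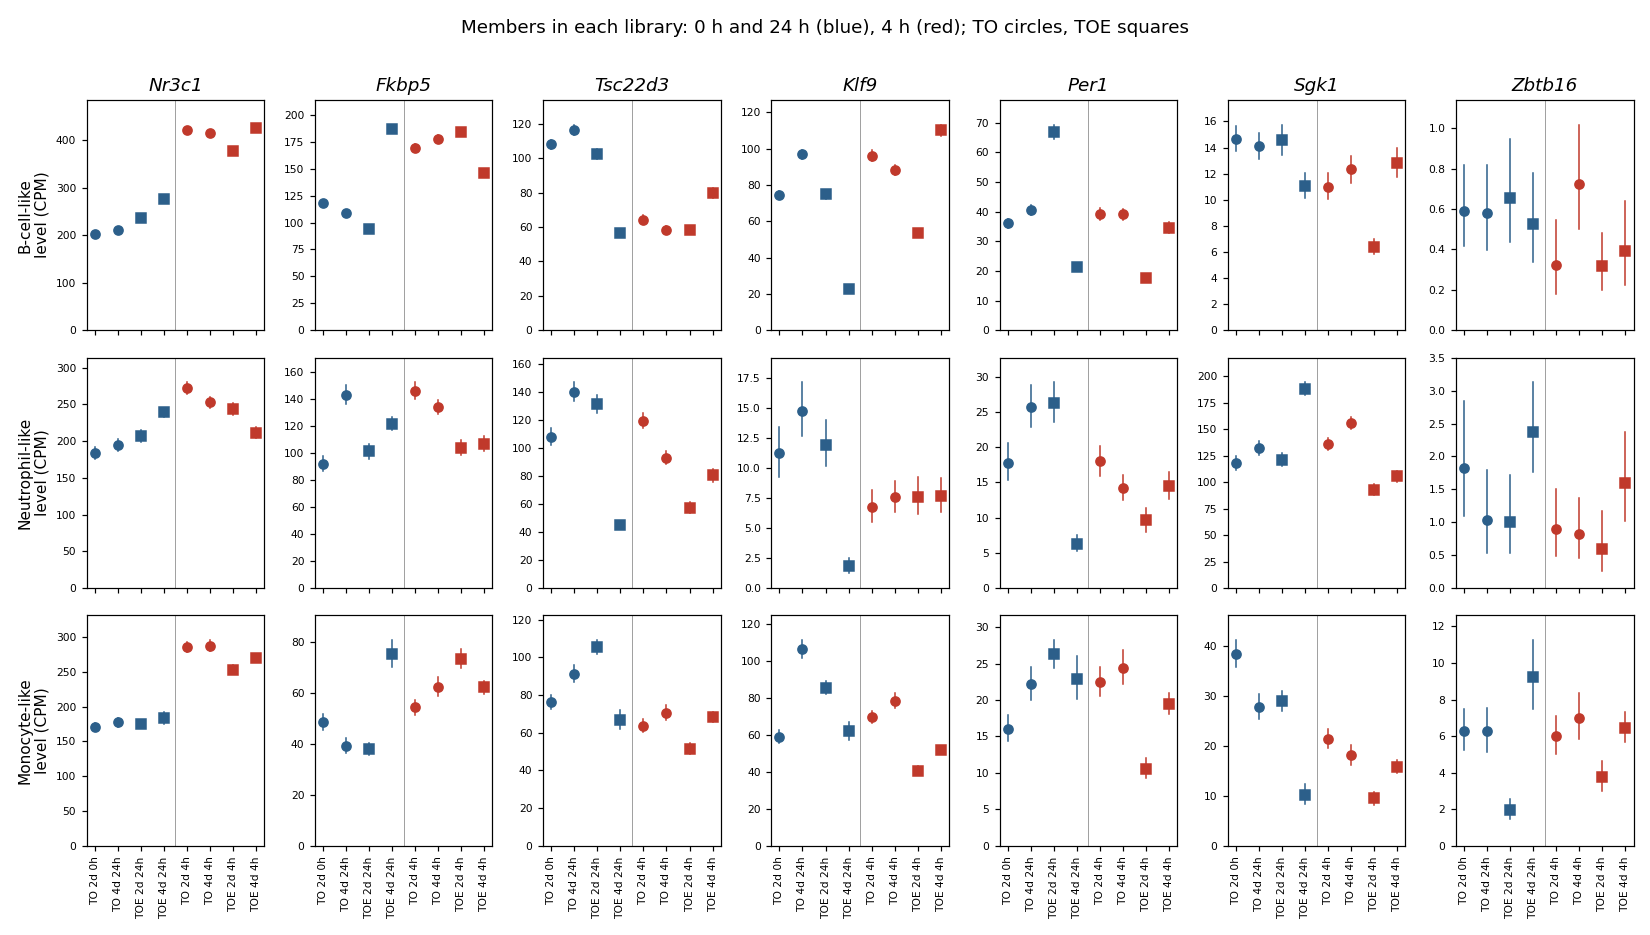
Level (CPM, from 0) of each gene in every library in B-cell-like, neutrophil-like and monocyte-like cells, with 95% counting intervals; blue marks 0 h and 24 h, red 4 h, circles TO and squares TOE. Nr3c1 at 4 h sits at 377 to 426 CPM in B-cell-like cells, above all blue points, while TOE 4d 24h, the last blue point, is beside or beyond the red points for Fkbp5 and Tsc22d3.

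Counted by class, 1 of the 7 genes was called in B-cell-like cells, where 13.6% of all tested genes were called, and 1 in monocyte-like cells, against 12.5%. None was called in neutrophil-like cells, against 8.80%, by edgeR or DESeq2, and none had an unadjusted edgeR p under 0.05. In T/NK-cell-like cells 2 were called (12.0% of all genes), in granulocyte-monocyte progenitor-like cells 1 (19.9%) and in mast-cell/basophil-like cells 1 (5.80%). No gene of the 7 was called by edgeR in dendritic-cell-like (4.76% of all genes), erythroid-like (0.432%), macrophage-like (4.77%) or mesenchymal-like cells (0.0302%), where 2, 3, 1 and 2 of them had an unadjusted p under 0.05. Over all cells together, 0 of 7 were called by edgeR (1.80% of all genes), 1 had an unadjusted p under 0.05, and DESeq2 called 1. Without TOE 4d 24h, 3 of 7 were called in B-cell-like (26.4% of all genes), 4 in monocyte-like (24.4%), 2 in neutrophil-like (18.1%), 3 in T/NK-cell-like (17.4%) and 3 in dendritic-cell-like cells (15.1%). Granulocyte-monocyte progenitor-like and mast-cell/basophil-like cells then had 1 each (23.0% and 6.99%), all cells together 2 (8.49%), and erythroid-like (0.244%), macrophage-like (12.7%) and mesenchymal-like cells (0%) none by edgeR, with 4, 4 and 2 unadjusted. Nr3c1 had a fitted change above 0 in 10 of 10 classes and Tsc22d3 below 0 in 9 of 10, and in 10 of 10 without TOE 4d 24h. The sign of Nr3c1 turned in neutrophil-like, erythroid-like and macrophage-like cells when certain single libraries were left out. The classes come from the same libraries, and the share of all genes with such counts of signs was not counted. Counts of signs here and above are therefore a description.

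**Figure D3:**
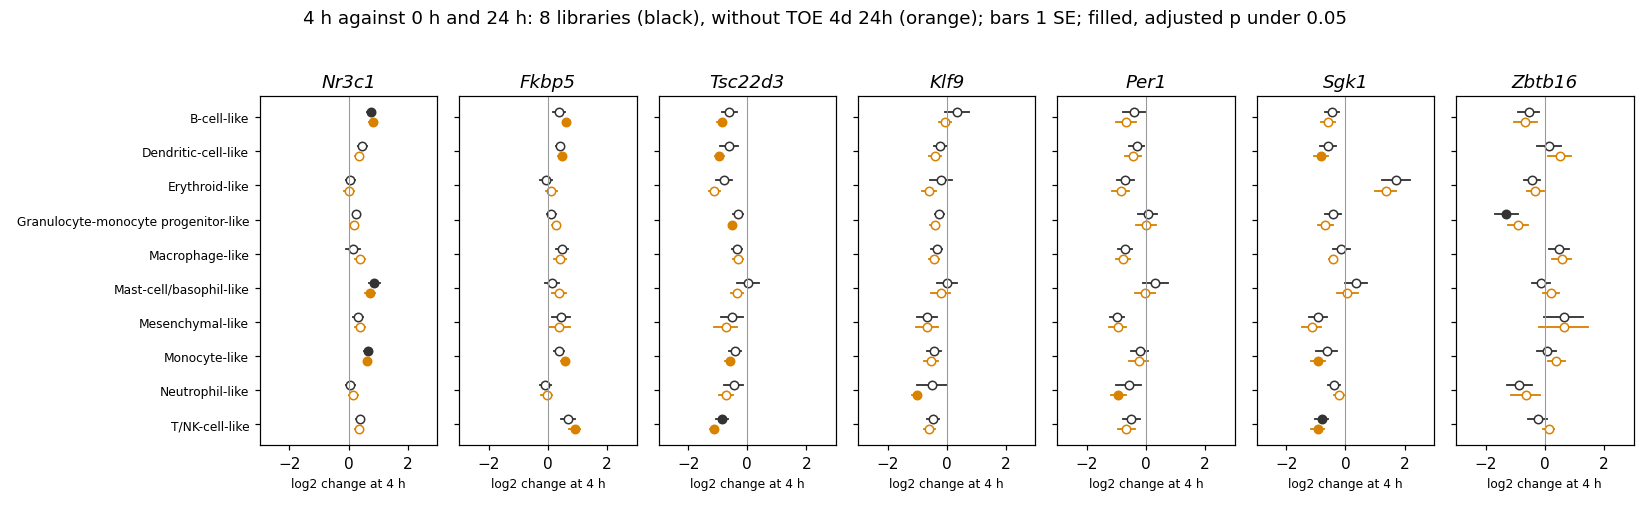
Fitted log2 change at 4 h against 0 h and 24 h (x axis) of each gene by class, with bars of 1 SE, over 8 libraries (black) and without TOE 4d 24h (orange); filled points passed an adjusted p of 0.05. Nr3c1 is right of 0 in all classes and filled in 3 of them in both colours, and Tsc22d3 is filled in 1 class in black and in 5 classes in orange.

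The difference of the 4 h change between classes was tested on paired libraries with limma. It used log2 CPM without the scaling by TMM, so its values are not the differences between the edgeR changes given above. The fitted change of Nr3c1 was 0.58 ± 0.16 larger on the log2 scale in B-cell-like than in neutrophil-like cells, and this difference did not pass the test (limma adjusted p = 0.0619, with 5.81% of genes called). It was 0.20 ± 0.12 larger in B-cell-like than in monocyte-like cells (limma adjusted p = 0.403, 0.0332% of genes called), and the neutrophil-like change was 0.38 ± 0.15 smaller than the monocyte-like change (limma adjusted p = 0.129, 8.67% of genes called). No other gene of the 7 passed in these comparisons, in which the lowest adjusted p after Nr3c1 was 0.1045 for Zbtb16 between neutrophil-like and monocyte-like cells.

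The comparison of TOE with TO asks whether shock waves changed these genes. In the same fits 0 of 70 tests of a gene in a class were called (lowest edgeR adjusted p 0.539), and 5 had an unadjusted p under 0.05. Over all genes 0% were called in B-cell-like, neutrophil-like and monocyte-like cells, with 580, 616 and 1488 genes at an unadjusted p under 0.05. Day 4 was set against day 2 by the day in the name, which is not always the day of collection. This gave 0 of 70 calls (lowest edgeR adjusted p 0.780, 1 unadjusted), against 0%, 0% and 0.00647% of all genes in the same classes. The 4 h change in TOE minus that in TO gave 0 of 70 calls (lowest edgeR adjusted p 0.396, 6 unadjusted), and 0%, 0% and 0.00647% of all genes.

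Single pairs of libraries nevertheless differed beyond counting error, which is no test between animals. At 4d 24h, in B-cell-like cells, the TOE level over the TO level was 0.232 for Klf9 (exact conditional 95% interval 0.217 to 0.248), 0.483 for Tsc22d3 (0.462 to 0.506), 0.524 for Per1 (0.486 to 0.565) and 1.72 for Fkbp5 (1.66 to 1.77). This pair holds TOE 4d 24h, with 1.66% of its B-cell-like cells in cluster 0 and 51.8% in cluster 3, against 47.8% and 4.23% in TO 4d 24h. The part of these clusters in the ratios was not tested. At 4d 4h the same ratios were 1.25 for Klf9, 1.37 for Tsc22d3, 0.887 for Per1 and 0.823 for Fkbp5, so that all of these but Per1 lay on the other side of 1. At 2d 4h, Klf9 was 0.555 (0.531 to 0.580), Per1 0.452 (0.420 to 0.487) and Sgk1 0.582 (0.510 to 0.664), and Tsc22d3 was 0.907. Per1 at 2d 4h was also lower in TOE in neutrophil-like (0.534) and monocyte-like cells (0.469). For Nr3c1 in B-cell-like cells the pair 2d 4h gave 0.895, the pair 4d 4h 1.02 and the pair 4d 24h 1.30, and monocyte-like cells gave 0.886, 0.937 and 1.03.

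Other genes of the pathway were read from lists. Of 32 further genes known to be induced by glucocorticoids, 29 were tested in B-cell-like cells, of which 2 were called higher and 1 lower (list median log2 0.11, all genes 0.00). Of all genes tested in these cells 6.42% were called higher and 7.16% lower, in monocyte-like cells 6.43% and 6.04%, and in neutrophil-like cells 3.86% and 4.94%. Counted in both directions, the share of the list that was called lay below that of all genes in each of the 3 classes. The higher ones were Errfi1, an inhibitor of EGF receptor signalling, with 43.6 to 83.9 CPM at 4 h and 35.3 to 42.7 CPM otherwise, and Lpin1, an enzyme of lipid synthesis, with 13.4 to 17.1 and 8.74 to 11.7 CPM. Txnip, which binds thioredoxin, fell from 60.9 to 128 CPM to 30.9 to 57.6 CPM (log2 -1.17 ± 0.29, edgeR adjusted p = 0.0372). Monocyte-like cells gave 1 higher and 1 lower of 29 tested, again Errfi1 (1.23 ± 0.16, edgeR adjusted p = 0.00689) and Txnip (-1.10 ± 0.27, edgeR adjusted p = 0.0428). Neutrophil-like cells gave 1 and 1 of 28, Stom (0.55) and Angptl4 (-2.11, at 1.06 to 2.31 CPM at 4 h). Their list medians were 0.36 in monocyte-like and 0.06 in neutrophil-like cells, with medians of all genes of -0.02 and -0.01. Of the other classes, dendritic-cell-like cells had 2 of 28 lower (4.76% of all genes called either way) and macrophage-like cells 1 of 28 lower (4.77%). Granulocyte-monocyte progenitor-like cells had 1 higher and 2 lower of 26 (19.9%), and T/NK-cell-like cells 1 and 2 of 22 (12.0%). By edgeR none was called of 26 in erythroid-like (0.432%), 22 in mast-cell/basophil-like (5.80%) or 30 in mesenchymal-like cells (0.0302%). There 6, 4 and 7 had an unadjusted p under 0.05. The genes are named after their values were seen. Txnip fell in dendritic-cell-like, granulocyte-monocyte progenitor-like and T/NK-cell-like cells (-1.72, -1.48 and -1.43), Rhob in the first 2 of these (-1.06 and -1.18), Per2 in T/NK-cell-like (-1.10) and Angptl4 in macrophage-like cells (-1.46), while Cebpd rose in granulocyte-monocyte progenitor-like (0.71) and Errfi1 in T/NK-cell-like cells (1.02). Shares over all genes in these classes are given above.

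The partners of the receptor were led by Stip1, the co-chaperone that links Hsp70 and Hsp90. It rose in B-cell-like (log2 0.85 ± 0.14), monocyte-like (0.74 ± 0.12) and neutrophil-like cells (1.11 ± 0.20), with edgeR adjusted p of 0.0134, 0.0142 and 0.0177. Hsp90aa1, the stress-induced Hsp90, rose in monocyte-like (0.68 ± 0.14) and neutrophil-like cells (0.79 ± 0.18). These were the genes called among 15, 14 and 14 tested of that list in the 3 classes, against 6.42%, 6.43% and 3.86% of all genes called higher, and none fell there. Other classes gave calls both ways, with genes named after their values were seen. T/NK-cell-like cells had 5 of 12 called higher and none lower (12.0% of all genes called either way), which were St13 (1.17), Stip1 (0.96), Hsp90aa1 (0.91), Ncor1 (0.47) and Ncoa1 (0.46). Granulocyte-monocyte progenitor-like cells had 3 of 14 higher, Stip1 (0.76), Ncor1 (0.46) and Hsp90aa1 (0.35), and 1 lower, the constitutive Hsp70 Hspa8 (-0.71), against 19.9% of all genes. Hspa8 also fell in dendritic-cell-like (-0.58) and mast-cell/basophil-like cells (-0.86), where Ncoa2 rose (0.64), and Fkbp4 fell in macrophage-like cells (-0.64). The calls were thus 1 of 12, 2 of 11 and 1 of 14, against 4.76%, 5.80% and 4.77% of all genes. List medians were 0.26 in B-cell-like, 0.16 in monocyte-like and 0.04 in neutrophil-like cells. Of 14 inflammatory genes known to be repressed by glucocorticoids, 0 were called in B-cell-like cells by edgeR (1 at an unadjusted p under 0.05), 1 in monocyte-like cells (12.5% of all genes) and 2 in neutrophil-like cells (8.80%), with list medians of 0.00, 0.63 and -0.09. Il6, a cytokine, was 17.8 to 36.4 CPM at 4 h and 1.82 to 9.41 CPM otherwise in monocyte-like cells, and 15.6 to 20.5 against 1.71 to 3.35 CPM in neutrophil-like cells. Ccl4, a chemokine, was lower in neutrophil-like cells (log2 -2.14 ± 0.55, edgeR adjusted p = 0.0478). Of the other classes, granulocyte-monocyte progenitor-like cells had 2 of 13 called higher, Il6 (4.38 to 13.7 CPM at 4 h, 0 to 0.429 CPM otherwise) and Il1a (1.15 to 2.96 and 0 to 0.538 CPM), and Ccl4 was called lower there (-1.46), against 19.9% of all genes called. Ccl4 was also the 1 gene of 13 called in macrophage-like cells (-1.87), against 4.77%.

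Of the clock genes other than Per1, 1 of 13 tested was called in monocyte-like cells and none of 16 in B-cell-like or of 13 in neutrophil-like cells by edgeR, where 2 and 1 had an unadjusted p under 0.05. The shares over all genes were 12.5%, 13.6% and 8.80%, so that the list lay below them over the 8 libraries. The called gene was Dbp, a clock output factor, at 34.3 to 38.9 CPM at 4 h and 22.5 to 25.8 CPM otherwise. With TOE 4d 24h set aside, the B-cell-like levels of some genes of the list separated by hour. In that setting 26.4% of all genes tested in these cells were called. The share of all genes that separated was not counted, so the values are a description and nothing about the clock is drawn from them. Bmal1 was 9.10 to 10.25 CPM at 4 h and 4.79 to 6.59 CPM otherwise, with 10.13 CPM in TOE 4d 24h. Clock was 30.7 to 34.9, 19.3 to 25.4 and 33.4 CPM in that order. Cry2 was 19.6 to 24.2, 33.9 to 40.3 and 18.3 CPM, and Per2 5.30 to 9.37, 11.3 to 15.0 and 6.20 CPM. Cry1, Nr1d1 and others overlapped, and the list was not tested without TOE 4d 24h. List medians were 0.12, -0.03 and -0.10 in B-cell-like, monocyte-like and neutrophil-like cells. Elsewhere Per3 fell in granulocyte-monocyte progenitor-like (-1.56) and T/NK-cell-like cells (-1.33), and Per2 in the latter, again named after their values were seen. The calls were thus 1 of 12 and 2 of 13 tested, against 19.9% and 12.0% of all genes in these 2 classes. Of the genes of dissociation and heat stress, 2 of 12 were called higher in B-cell-like, 3 of 12 in monocyte-like and 2 of 12 in neutrophil-like cells, with none lower there and list medians of 0.07, 0.23 and 0.07, against 6.42%, 6.43% and 3.86% of all genes called higher. Hspa1b, an inducible Hsp70, was 43.0 to 206 CPM at 4 h and 14.7 to 29.9 CPM otherwise in B-cell-like cells, and Hspa1a was 99.5 to 405 against 40.9 to 86.4 CPM. Monocyte-like cells had calls for Hspa1b, Ier3 and Dnajb1. The direction was the other way in granulocyte-monocyte progenitor-like cells, with 0 of 12 higher and 3 lower, namely Atf3 (-2.08), Hspa1a (-0.81) and Ier2 (-0.80), against 19.9% of all genes called, and in macrophage-like cells, with 0 higher and 2 lower, Ier2 (-1.21) and Atf3 (-1.15), against 4.77%. T/NK-cell-like cells had 1 call of 12, Dnajb1 (1.56), against 12.0% of all genes. Mesenchymal-like cells had no edgeR call, 7 of 12 at an unadjusted p under 0.05 and a list median of -0.85. The fitted change of Nr3c1 was not called in the granulocyte-monocyte progenitor-like, macrophage-like and mesenchymal-like classes (0.25, 0.14 and 0.31). In macrophage-like cells it was -0.07 without TOE 2d 24h. How Nr3c1 relates to the stress genes in these classes was not tested. Hspa1a and Hspa1b thus rose with Nr3c1 in B-cell-like cells, and their part in the change of Nr3c1 was not tested. In TOE 4d 24h, Hspa1b was 17.8 CPM in B-cell-like cells, within the range of the other 0 h and 24 h libraries, but in monocyte-like cells it was 1434 CPM there against 270.2 to 928 CPM in the others, and Hspa1a was 3316 CPM, the highest of the 8 libraries.

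The likeness of patterns was measured over 80 points, the 10 classes in 8 libraries with each class centred on its mean, as a description of points that share libraries. Among 9181 genes with a mean of at least 10 CPM, those most like Nr3c1 were Cyth1 (r = 0.82), LOC120098619 (0.82) and Ddx6 (0.82). For Fkbp5 they were Ndufb4-ps6 (r = 0.77), Snx27 (0.75) and Faf1 (0.75), and for Tsc22d3 Herpud1 (0.73), LOC100912041 (0.73) and Nr1d2 (0.73). Klf4 was among the 3 genes most like both Klf9 (r = 0.74, after Oser1 at 0.76 and before Slc7a1 at 0.72) and Per1 (0.72, followed by Susd6 at 0.71 and Klf11 at 0.68). Sgk1 was most like Natd1 (r = 0.69), Mkrn1 (0.68) and Cnppd1 (0.64), and Zbtb16 most like Nlrp1a (0.56), Rpph1 (0.52) and LOC102557195 (0.50). Among the 7 genes, Per1 and Klf9 (r = 0.67), Tsc22d3 and Per1 (0.64) and Tsc22d3 and Klf9 (0.62) varied together. Tsc22d3 and Fkbp5 varied in opposite directions (r = -0.50), and so did Fkbp5 and Klf9 (-0.45). Nr3c1 was most related to Fkbp5 (r = 0.40), followed by Sgk1 (-0.15). It was close to unrelated to Tsc22d3 (-0.07), Per1 (0.06), Klf9 (-0.02) and Zbtb16 (-0.01).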

How the data were processed

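Cells from the tibial osteotomy site were profiled with the 10x Genomics Chromium platform. For each library analysed here the authors deposited a matrix of raw UMI counts, which Cell Ranger 9.0.0 had written and which carries no scaling. The submitters' processing notes name the builds mRatBN7.2 and GRCh38, and the annotation is not given in the sources used here. The libraries held 95954800 to 144146202 UMIs and 12451 to 17187 barcodes, and pairs of libraries shared 36 to 96 barcodes. A barcode was kept if it had 200 genes or more and no more than 20% of its UMIs from mitochondrial genes, and barcodes with a Scrublet score over 0.25 (scanpy 1.11.5) were removed as doublets (2.43% to 4.15% per library). Clusters came from 2000 variable genes, 30 principal components, 15 neighbours and the Leiden method at resolution 1, without integration of libraries.

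A cluster was named from at least 3 raised markers (log2 fold of at least 1 over the 25th percentile of cluster means, in at least 20% of cells). It stayed unnamed where its median depth, relative to its libraries, lay below 1 divided by 3, where its 10 leading genes held more markers of another class than of its own, or where over 90% of its cells came from 1 library. This rule was settled after the clusters had been seen. The genes described, the gene lists and the tests were chosen with earlier results of these data known. UMIs were summed per library and class, in classes with at least 20 cells in every library. The sums were tested with edgeR 4.0.16 (quasi-likelihood, TMM, filterByExpr) across all genes with arm, day and 4 h as terms, in R 4.3.3, and called at an adjusted p under 0.05. limma 3.58.1 tested class differences of log2 CPM (prior count 2) without TMM scaling. DESeq2 1.42.0 served as an alternative. Standard errors were derived from the F statistic. Named genes were the 7 members, the called genes of 5 lists in B-cell-like, neutrophil-like and monocyte-like cells (up to 4 each way per class) and the 3 genes most like each member. List genes of other classes were named after their values had been seen. Since libraries are single per condition and nothing says that they hold separate animals, p-values measure the spread between libraries. The fits were also run on simulated data, whose outcome is not given here. Alternatives covered scaling, tool, filters, covariates, clustering and each library left out, and the library TO 2d 24h was not analysed here. Apart from leaving out a library, alternative fits were made over all cells and only in the classes named further on.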

Additional observations from a re-analysis of the deposited data

Results flagged for a closer look

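Of 140 groups of levels, each the 4 libraries of a set, those with at least 20 UMIs in every library were checked with Dixon's test. A library stood far from the others in 7, where chance gives about 1 in 20 of the groups checked. The number checked was not kept, so the 7 cannot be set against chance, and they are listed as a description. Sgk1 in B-cell-like cells was 11.04 CPM in TOE 4d 24h and 14.11 to 14.69 CPM in the other 0 h and 24 h libraries. Per1 in erythroid-like cells was 12.42 CPM in TO 2d 4h, with 10.12 to 10.4 CPM in the other 4 h libraries. At 0 h and 24 h it was 24.85 CPM in TOE 2d 24h and 15.73 to 17.28 CPM in the rest. Nr3c1 in granulocyte-monocyte progenitor-like cells was 143.7 CPM in TO 4d 4h against 155 to 155.5 CPM in the other 4 h libraries. In mast-cell/basophil-like cells Nr3c1 was 212.5 CPM in TOE 4d 24h and 345.5 to 371.1 CPM in the other 0 h and 24 h libraries. Sgk1 in mesenchymal-like cells was 35.08 CPM in TO 2d 4h, with 68.24 to 73.87 CPM in the other 4 h libraries. Klf9 in neutrophil-like cells was 6.731 CPM in TO 2d 4h and 7.537 to 7.623 CPM in the other 4 h libraries.

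A cluster of 3248 cells that received no class name, with a median of 813 UMIs, lies outside the comparisons by class and was tested with edgeR in the same way. Among its genes 41.7% were called. Tsc22d3 (log2 -1.499, edgeR adjusted p = 0.000133), Sgk1 (-1.472, 0.00281) and Per1 (-1.186, 0.0209) were lower at 4 h. Nr3c1 (1.27, edgeR adjusted p = 0.000107), Klf9 (0.9588, 0.0267) and Fkbp5 (0.7169, 0.0209) were higher.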

How the results depend on the processing

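Apart from leaving out libraries, 306 of 315 fitted changes of single genes kept their direction and their side of the threshold. These fits were made over all cells and in the monocyte-like, neutrophil-like and B-cell-like classes. The remaining classes were refitted only with a library left out. That applies to the calls of Tsc22d3 and Sgk1 in T/NK-cell-like, Nr3c1 in mast-cell/basophil-like and Zbtb16 in progenitor-like cells. Nr3c1 over all cells passed the threshold with DESeq2's Wald test (log2 0.56), without covariates (0.56) and with limma on means over cells (0.83), so that 1 of the 7 genes was called there in place of 0. With limma, the change of Klf9 over all cells was 0.4475, that of Zbtb16 over all cells 0.09889 and that of Fkbp5 in neutrophil-like cells 0.06922, each of the opposite sign. Zbtb16 in monocyte-like cells was -0.006062 at a Leiden resolution of 0.5. In the matched pairs alone, TOE against TO for Nr3c1 was -0.03591 in B-cell-like and -0.06287 in neutrophil-like cells, also of the opposite sign. Over all cells the 395 genes called became 2364 with DESeq2, 1565 without covariates, 13 with each arm and day as a block and 1821 with limma. The 2543 genes of B-cell-like cells became 3856 with DESeq2 and 1182 with the block. In neutrophil-like cells 1261 genes were called, against 662 with the block and 781 with limma, and in monocyte-like cells 1927, against 719 with the block. The cause of these differences was not tested.

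With each library left out in turn, genes called ranged from 3 to 1853 over all cells, 171 to 4889 in B-cell-like, 157 to 2537 in neutrophil-like and 266 to 3766 in monocyte-like cells. The genes called among the 7 ranged from 0 to 2 over all cells, 0 to 3 in B-cell-like, dendritic-cell-like and T/NK-cell-like cells, 0 to 4 in monocyte-like, 0 to 2 in neutrophil-like and 0 to 1 in erythroid-like, mast-cell/basophil-like and granulocyte-monocyte progenitor-like cells. Changes whose sign turned without at least 1 library had these ranges on the log2 scale. Fkbp5 ranged from -0.2115 to 0.1182 in erythroid-like, -0.01787 to 0.257 in granulocyte-monocyte progenitor-like and -0.07481 to 0.3718 in mast-cell/basophil-like. Klf9 ranged from -0.4596 to 0.285 over all cells, -0.04895 to 0.745 in B-cell-like, -0.3891 to 0.05674 in dendritic-cell-like, -0.594 to 0.02073 in erythroid-like, -0.2004 to 0.4104 in mast-cell/basophil-like and -1.018 to 0.01909 in neutrophil-like. Nr3c1 ranged from -0.01272 to 0.1192 in erythroid-like, -0.07357 to 0.3845 in macrophage-like and -0.05338 to 0.1502 in neutrophil-like. Per1 ranged from -0.6652 to 0.139 in B-cell-like, -0.1976 to 0.4833 in granulocyte-monocyte progenitor-like, -0.1152 to 0.7268 in mast-cell/basophil-like and -0.4027 to 0.08677 in monocyte-like. Sgk1 ranged from -0.4157 to 0.1198 in macrophage-like. Tsc22d3 ranged from -0.3489 to 0.4411 in mast-cell/basophil-like. Zbtb16 ranged from -0.3416 to 0.5122 in dendritic-cell-like, -0.415 to 0.2046 in mast-cell/basophil-like, -0.109 to 1.195 in mesenchymal-like, -0.2058 to 0.3938 in monocyte-like and -0.508 to 0.1355 in T/NK-cell-like. Median levels moved by less than the spread between libraries under stricter cell filters in 70 of 70 cases. The labels give no replicate numbers, so no replicate block was fitted, and the block of arm and day and the matched pairs above join libraries by their conditions.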
